A study of Mus musculus with 8 samples.

Results

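The genes described here write, maintain and remove methylation of cytosine in DNA. They were listed by name: the methyltransferase genes Dnmt1, Dnmt3a and Dnmt3b, the cofactor gene Dnmt3l, the maintenance factor gene Uhrf1, the dioxygenase genes Tet1, Tet2 and Tet3, and the glycosylase gene Tdg. Of these 9 genes, 8 had a probe set that the platform annotation gives to a single gene symbol, out of 19935 such genes in the series, and each is represented by its brightest such probe set on average. Tdg had none: its 4 probe sets are also assigned to the pseudogene Tdg-ps2, so no value is given for it. The measured genes lie on mouse chromosomes 9 (Dnmt1), 12 (Dnmt3a), 2 (Dnmt3b), 10 (Dnmt3l and Tet1), 17 (Uhrf1), 3 (Tet2) and 6 (Tet3).

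The series measured total RNA of the mouse embryonic stem cell line R1 on 8 Affymetrix gene arrays. All cells were kept under pluripotent conditions and transfected with small interfering RNA (siRNA), and RNA was taken 48 hours later. The 3 groups were control siRNA (3 arrays), siRNA 1 against CnAb1 (3 arrays) and siRNA 2 against CnAb1 (2 arrays), CnAb1 being a splice variant of the calcineurin subunit gene Ppp3cb. The labels give no genotype beyond the line, no siRNA sequence and no word on separate cultures, so the spread behind each p-value is that between arrays and could be technical only. The sample titles speak of differentiation where the culture description and the series title speak of pluripotency, and the latter is followed here. The small number of arrays limits the precision of every value. All values are log2 expression, so a difference of 1 is a doubling.

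In mammals DNMT3A and DNMT3B place new methyl groups on CpG dinucleotides, helped by the catalytically inactive DNMT3L. At replication UHRF1 binds half-methylated CpGs and brings in DNMT1, which copies the mark to the new strand. TET proteins oxidise 5-methylcytosine, and TDG excises the more oxidised forms so that base excision repair can restore cytosine. Embryonic stem cells are known for high Tet1, Tet2, Dnmt3b and Dnmt3l expression, and Tet3 is best known from the oocyte and the zygote.

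The promoters of these genes themselves differ in the CpG content on which the encoded enzymes act. RefSeq windows of 300 bases around a transcript start (build GRCm38.p6) were at hand for all 9 genes, 16 windows in all. Some genes have several windows, and the first and second windows of Dnmt3a overlap, so the 16 are not independent. They held from 2 to 57 CpGs, against a median of 7 over 32851 windows, and 12 of the 16 lay above that median. The highest count, 57, was at Tet2, and the 3 windows of Dnmt3l held 6, 4 and 3. For 3 genes a stretch that ends before the outermost annotated start is shown, 5′ to 3′ on the gene's strand with each CpG in capitals, because together they set a de novo writer gene and Tet1 beside the CpG-poor gene of the cofactor. The Dnmt3b stretch (chr2:153649199-153649410, plus strand) has 16 CpGs in 212 bases, the Dnmt3l stretch (chr10:78042037-78042286, plus strand) has 5 in 250, and the Tet1 stretch (chr10:62887470-62887574, minus strand) has 7 in 105.
Dnmt3b: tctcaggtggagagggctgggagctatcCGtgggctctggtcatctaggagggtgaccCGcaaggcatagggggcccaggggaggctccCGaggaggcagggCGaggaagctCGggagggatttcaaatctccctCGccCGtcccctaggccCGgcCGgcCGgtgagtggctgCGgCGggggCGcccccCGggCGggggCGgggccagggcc
Dnmt3l: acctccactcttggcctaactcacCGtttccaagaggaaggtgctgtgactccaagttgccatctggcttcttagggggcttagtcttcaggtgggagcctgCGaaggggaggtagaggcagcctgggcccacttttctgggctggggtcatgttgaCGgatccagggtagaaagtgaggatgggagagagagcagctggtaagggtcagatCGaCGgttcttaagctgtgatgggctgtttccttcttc
Tet1: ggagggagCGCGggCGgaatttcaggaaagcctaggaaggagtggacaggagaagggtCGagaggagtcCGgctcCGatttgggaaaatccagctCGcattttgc

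A set of 4 motifs was searched on both strands of the windows. GGGCGG, the core of the GC box that Sp1 binds, was in 12 of the 16 windows and in 35.7% of all windows. TTTCGCGC, a form of the consensus of the E2F cell cycle factors, was in 2 of the 16 and in 0.3% of all windows, once at Dnmt1 (219 bases before the start of the third of its 3 windows, as the reverse complement) and once at Uhrf1 (185 bases before the start of the second of its windows). TTTGGCGC, another form of it, was in 1 of the 16 (the same Dnmt1 window, 33 bases after the start) and in 0.5% of all. CCAAT, the box bound by NF-Y, was in 6 of the 16 and in 37.4% of all. A match is a description of the letters only.

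The cells carried the transcripts that define the labelled cell type. Pou5f1, Nanog and Sox2 read 13.21 ± 0.03, 13.08 ± 0.01 and 12.67 ± 0.06 (SD, n = 3) on the control arrays, and the mean of 10 stem cell markers stayed between 12.59 and 12.72 on all 8 arrays. Array medians ran from 8.12 to 8.20 and lower quartiles from 6.81 to 6.98. The mean of 18 fibroblast markers was 8.99 to 9.10 on control arrays, 9.04 to 9.22 with siRNA 1 and 9.08 to 9.09 with siRNA 2. The mean of 7 macrophage and blood markers was 8.01 to 8.28, 8.09 to 8.43 and 8.13 to 8.19 in the same order. Of these markers 12 of the 18 and 3 of the 7 lay higher in the siRNA average, where 11176 of 19935 genes did. Their medians were 0.059 and -0.002, against 0.011 for all genes. At an unadjusted p under 0.05 there were 4 of the 18 fibroblast markers, where 6.31% of all genes were, and 0 of the 7 macrophage markers. Of those 4, Col1a1, Col1a2 and Acta2 lay higher and Twist1 lower, all 4 named after their values were seen. Col1a1, Col1a2 and Col5a2, the last named likewise, had all 5 siRNA arrays above the highest control, as 2.49% of all genes had. Values on this scale have no 0. A mean under the lower quartile of the values of all probe sets with a single gene symbol was found for 2 fibroblast and 0 macrophage markers. The part of such cells in the results below was not tested, and fewer cells of a type cannot be told apart from less RNA per cell. Ppp3cb averaged 10.63 ± 0.07 on the controls (n = 3), 10.76 ± 0.29 after siRNA 1 (n = 3) and 11.11 ± 0.07 after siRNA 2 (n = 2), and the siRNA 1 arrays read 10.52, 10.68 and 11.09. Without the last, siRNA 1 replicate 3, the siRNA 1 mean was 10.60, just under control. The annotation assigns the probe set to the gene and not to the targeted splice variant, so it does not check the knockdown.

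No gene of the methylation machinery changed by the test used after the CnAb1 siRNAs. Between control and the average of both siRNAs 4 of the 8 genes lay higher and 4 lower, where 11176 and 8759 of 19935 genes did. The differences ran from -0.18 (Tet3) to 0.03 (Dnmt3l). Limma, a moderated linear model fitted to all genes, called 0 of the 8 at an adjusted p under 0.05, where it called 0.0% of all genes. At an unadjusted p under 0.05 there were 0 of the 8, against 6.31% of all genes. The median difference of the 8 was -0.002 and that of all genes 0.011. The 95% intervals reached at most from 1.09-fold (Dnmt1) to 1.31-fold (Tet3) in either direction, so each interval leaves out a 1.5-fold change. None of the 8 had all siRNA arrays above all controls, as 2.49% of genes did, or all below, as 2.25% did.

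**Figure D1:**
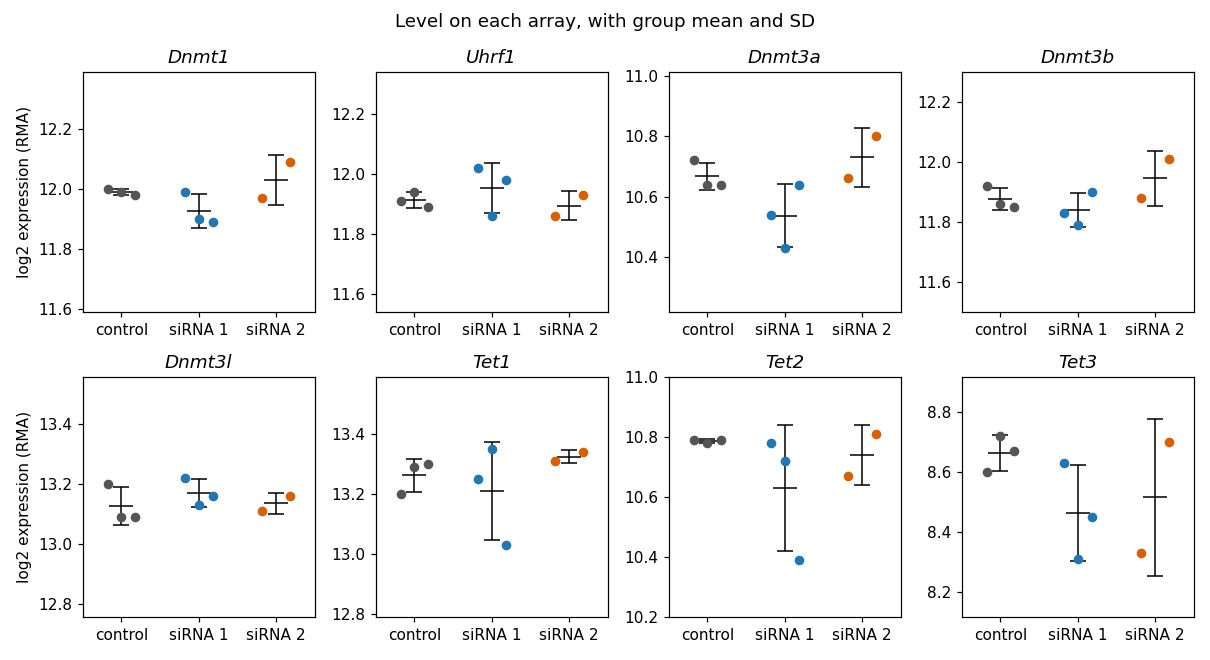
Log2 expression (vertical axis, 0.8 units high in every panel) of the 8 genes on each array, by group (horizontal axis). Points are arrays, and bars are the group mean and SD. For none of the 8 genes do all siRNA arrays lie outside the control range, and 1 siRNA 1 array sits far below the others at Tet1 and Tet2.

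Dnmt1, the maintenance methyltransferase, was steady. It read 12.00, 11.99 and 11.98 on the control arrays, 11.99, 11.90 and 11.89 with siRNA 1, and 11.97 and 12.09 with siRNA 2. The siRNA arrays lay on both sides of the narrow control range, 3 below it and 1 above. The siRNA average differed from control by -0.01 (SE 0.05, 95% interval -0.12 to 0.10), siRNA 1 by -0.06 (SE 0.06) and siRNA 2 by 0.04 (SE 0.06).

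Uhrf1, whose product guides DNMT1 to newly copied DNA, read 11.91, 11.94 and 11.89 on the control arrays, 12.02, 11.86 and 11.98 with siRNA 1, and 11.86 and 11.93 with siRNA 2. Here 2 siRNA arrays lay above the controls and 2 below. The siRNA average differed by 0.01 (SE 0.05, 95% interval -0.11 to 0.13). Dnmt1 and Uhrf1 did not take their extremes on the same array: Dnmt1 was highest on siRNA 2 replicate 2 and lowest on siRNA 1 replicate 3, and Uhrf1 was highest on siRNA 1 replicate 1 and lowest on siRNA 2 replicate 1.

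Among the de novo writers, Dnmt3a showed the wider spread. It read 10.72, 10.64 and 10.64 with control siRNA, 10.54, 10.43 and 10.64 with siRNA 1, and 10.66 and 10.80 with siRNA 2. Only siRNA 1 replicates 1 and 2 lay below the control range, and the highest of all was siRNA 2 replicate 2. SiRNA 1 differed from control by -0.13 (SE 0.07, 95% interval -0.28 to 0.03) and siRNA 2 by 0.07 (SE 0.08, 95% interval -0.11 to 0.24). The siRNA 1 difference was -0.07 without replicate 2, -0.021 without replicates 1 and 2, and -0.037 with array weights. It was -0.128 without replicate 1 and -0.178 without replicate 3.

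Dnmt3b, the more abundant de novo enzyme of early embryos, read 11.92, 11.86 and 11.85 with control siRNA, 11.83, 11.79 and 11.90 with siRNA 1, and 11.88 and 12.01 with siRNA 2. Its lowest and highest arrays were those of Dnmt3a, siRNA 1 replicate 2 and siRNA 2 replicate 2, and over the 8 arrays the log2 values of the pair had a Pearson r of 0.93, given as a description of arrays that share their normalization. The siRNA average differed from control by 0.02 (SE 0.05, 95% interval -0.10 to 0.13).

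Dnmt3l, the cofactor that lacks catalytic activity, did not follow the pair. Its values were 13.20, 13.09 and 13.09 on control arrays, 13.22, 13.13 and 13.16 with siRNA 1, and 13.11 and 13.16 with siRNA 2, a range of 0.14 over all arrays and the narrowest of the 8 genes. The siRNA average differed by 0.03 (SE 0.05, 95% interval -0.09 to 0.14), and 4 of the 5 siRNA arrays lay inside the control range. The CpG-poor stretch of this gene is printed above.

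Tet1, the main TET dioxygenase gene of stem cells, stood apart on a single array. It read 13.20, 13.29 and 13.30 with control siRNA, 13.25, 13.35 and 13.03 with siRNA 1, and 13.31 and 13.34 with siRNA 2. The low value was siRNA 1 replicate 3, 0.17 below the next lowest array. The other probe sets of the gene showed it too: probe set 10369690 read 12.38 there and 12.64 to 12.83 elsewhere, and probe set 10369688 read 11.80 there against a lowest control of 12.19. They measure the same RNA, so they repeat the reading of that sample and are not further samples.

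Tet2, which adds to the same oxidation and has a single probe set here, was low on the same array. Its values were 10.79, 10.78 and 10.79 with control siRNA, 10.78, 10.72 and 10.39 with siRNA 1, and 10.67 and 10.81 with siRNA 2. SiRNA 1 replicate 3 lay 0.28 below the next lowest array, a distance that 47 genes (0.24% of all) reached or passed on that array, while 207 genes (1.04%) were as far below as Tet1. That array held the lowest value of 3 of the 8 genes, Dnmt1, Tet1 and Tet2, and of 11.4% of all genes. For Dnmt1 this was nearly a tie, 11.89 against 11.90 on siRNA 1 replicate 2. Ppp3cb on siRNA 1 replicate 3 lay 0.33 above the mean of the other 7 arrays. Its value of 11.09 was inside their range, beside 11.07 and 11.16 on the siRNA 2 arrays.

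Neither gene passed the test between siRNA 1 and control. Tet1 differed by -0.05 (SE 0.08, 95% interval -0.23 to 0.13) and Tet2 by -0.16 (SE 0.09, 95% interval -0.37 to 0.05), with limma's adjusted p at 0.923 and 0.87. Without siRNA 1 replicate 3 these became 0.038 and -0.038, so the Tet2 difference rested on that array. With array weights, which gave that array 3.56 and siRNA 1 replicates 1 and 2 0.31 and 0.41, Tet2 fell by 0.339 on the log2 scale with siRNA 1 (adjusted p = 0.0303, against 0.0303 to 1 across the settings tried), the only call of a member in any fit. That fit called 7.2% of all genes, so a single call among 8 members is no result about them. With siRNA 2, Tet1 differed by 0.06 (SE 0.09) and Tet2 by -0.05 (SE 0.11).

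**Figure D2:**
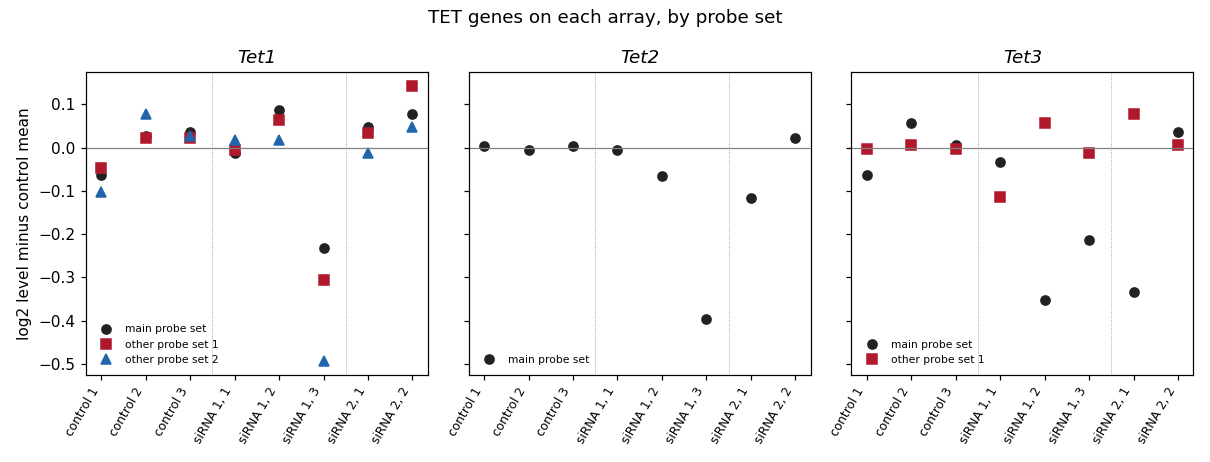
Log2 level of Tet1, Tet2 and Tet3 minus the mean of the control arrays (vertical axis) on each array (horizontal axis, group and replicate), with a symbol for each probe set. All 3 Tet1 probe sets and the Tet2 probe set are lowest on siRNA 1 replicate 3, and the 2 Tet3 probe sets part on siRNA 1 replicates 2 and 3 and siRNA 2 replicate 1.

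Tet3, the dioxygenase gene best known from the zygote, had the largest difference of the 8 genes and also the largest spread. It read 8.60, 8.72 and 8.67 with control siRNA, 8.63, 8.31 and 8.45 with siRNA 1, and 8.33 and 8.70 with siRNA 2. Of the siRNA arrays 3 lay below every control and 2 inside the control range, so each siRNA group held both. The average of both siRNAs differed by -0.18 (SE 0.10, 95% interval -0.39 to 0.04, adjusted p = 0.774 in limma), and 3.9% of all genes differed by as much or more. Its SD within groups, 0.162, was larger than that of 92.3% of genes.

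The arrays with the highest lower quartile of all probe sets, siRNA 1 replicate 2 (6.975), siRNA 2 replicate 1 (6.924) and siRNA 1 replicate 3 (6.889), were those where Tet3 was lowest, and a fit that took the lower quartile into account gave a difference of -0.076 (adjusted p = 0.792). Over the 8 arrays the Pearson r with the lower quartile was -0.91 for Tet3, -0.71 for Uhrf1 and -0.58 for Dnmt1, and from -0.43 to 0.09 for the others. The part of this property in the Tet3 difference was not tested. The Tet3 difference was -0.081 without siRNA 2 replicate 1 and -0.269 without siRNA 2 replicate 2. The other Tet3 probe set (10545692) read 8.09, 8.10 and 8.09 on the controls and from 7.98 to 8.17 on the siRNA arrays, and differed by 0.008.

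The siRNAs were then taken one at a time. With siRNA 1, 2 of the 8 genes lay above control and 6 below, where 11691 and 8244 of 19935 genes did. The median difference was -0.057 against 0.016 for all genes. With siRNA 2, 5 lay above and 3 below, where 10545 and 9390 of all genes did, with a median of 0.025 against 0.006. Both comparisons share the control arrays. Limma called 0 of the 8 in each, where it called 0.0% of all genes, and 0 of the 8 had an unadjusted p under 0.05 where 5.33% of all genes did with siRNA 1 and 6.07% with siRNA 2. The intervals reached at most 1.35-fold with siRNA 1 and 1.33-fold with siRNA 2, both at Tet3.

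Set against each other, siRNA 2 lay above siRNA 1 for 6 of the 8 genes and for 8862 of all 19935 genes. The median difference was 0.103 where all genes had -0.011. Limma called 0 of the 8 and 0.0% of all genes. Dnmt3a had an unadjusted p under 0.05, as 4.48% of all genes did: it lay 0.19 higher with siRNA 2 (SE 0.08, 95% interval 0.02 to 0.37, adjusted p = 1.0). The highest siRNA 1 array, at 10.64, was close to the lower siRNA 2 array, at 10.66, and the latter lay inside the control range of 10.64 to 10.72. The Dnmt3a difference was 0.088 without siRNA 1 replicates 1 and 2, and 0.121 without siRNA 2 replicate 2. It was 0.245 without siRNA 1 replicate 3 and 0.264 without siRNA 2 replicate 1. On siRNA 2 replicate 2 all 8 genes lay above their control mean, but on siRNA 2 replicate 1 only 1 did and 7 lay below. The median deviation of all genes from their control means was 0.0 on each of these arrays. On siRNA 2 replicate 2, 4 of the 8, Dnmt1, Dnmt3a, Dnmt3b and Tet2, were at their highest of the 8 arrays, where 14.1% of all genes were highest.

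**Figure D3:**
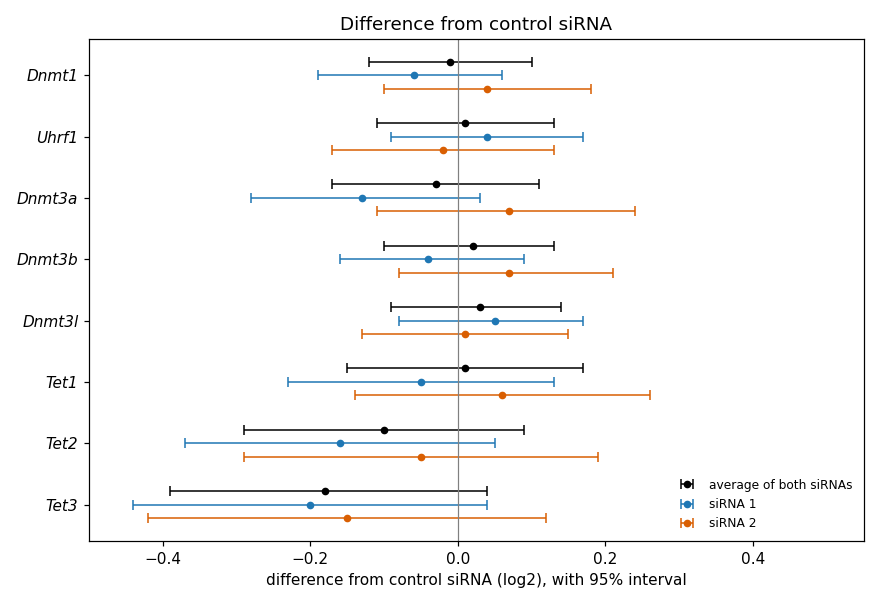
Difference from control siRNA (horizontal axis, log2) for the 8 genes (vertical axis), for the average of both siRNAs, siRNA 1 and siRNA 2. Points are limma estimates and bars their 95% intervals, and every interval includes 0, the widest being those of Tet3.

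The wider pathway was read from gene lists. Of all 19935 genes 11176 lay higher and 8759 lower in the siRNA average, with a median of 0.011 and 0.0% called. Of the 13 partners of maintenance methylation, chromatin factors that act with UHRF1 and DNMT1, 4 lay higher and 9 lower in the siRNA average, with a median of -0.018 and 0 called. Hells, a chromatin remodeller needed for methylation of repeats, averaged 11.85 ± 0.05 on the controls (SD, n = 3), 11.69 ± 0.14 after siRNA 1 (n = 3) and 11.76 ± 0.02 after siRNA 2 (n = 2), a difference of -0.12 (SE 0.06). Uhrf2, the paralog of Uhrf1, differed by -0.11 (SE 0.06), Dmap1 by -0.09 (SE 0.07) and Usp7, a deubiquitinase that binds DNMT1, by -0.05 (SE 0.05).

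Genes of the methyl-CpG-binding domain family and zinc finger genes whose products read methylated CpG gave differences in both directions. Of 7 tested genes 4 lay higher and 3 lower, with a median of 0.013 and 0 called. Mbd2 read 9.78 ± 0.02 with control siRNA, 9.63 ± 0.10 with siRNA 1 and 9.69 ± 0.03 with siRNA 2, and lay below every control on 5 of 5 siRNA arrays (difference -0.12, SE 0.05, adjusted p = 0.769 in limma), as 2.25% of all genes did. Mbd1 differed by 0.11 (SE 0.06), Zbtb4 by 0.11 (SE 0.10) and Zbtb33, which encodes Kaiso, by 0.05 (SE 0.05).

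Downstream of oxidation, 13 genes of base excision repair and of the Gadd45 family, whose proteins are linked to active demethylation, split into 6 higher and 7 lower, with a median of 0 and 0 called. Polb, the repair polymerase, differed by -0.12 (SE 0.04), Smug1, a uracil glycosylase, by 0.14 (SE 0.05), Gadd45b by 0.21 (SE 0.09) and Neil1, a glycosylase, by 0.11 (SE 0.06). Polb, Smug1 and Gadd45b had an unadjusted p under 0.05, 3 of 13 genes where 6.31% of all genes had one, and their adjusted p was 0.769 in limma.

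Of 10 genes listed as TET partners and recruiters 8 lay higher in the siRNA average, where 11176 of 19935 genes did. Their median was 0.039 and 0 were called. With siRNA 1 alone 5 lay higher and 5 lower, with a median of 0.01, and with siRNA 2 alone 9 and 1, with a median of 0.056. Dppa3, whose product protects DNA from TET3 in the zygote and keeps UHRF1 out of the nucleus, differed by 0.32 (SE 0.08, adjusted p = 0.769 in limma). It was the 1 gene of the 10 with an unadjusted p under 0.05 in limma, where 6.31% of all genes had one. It averaged 9.60 ± 0.07 on the controls (SD, n = 3), 9.98 ± 0.18 after siRNA 1 (n = 3) and 9.87 ± 0.14 after siRNA 2 (n = 2), and was above every control on 5 of 5 siRNA arrays, as 2.49% of all genes were. Cxxc4, which binds TET2, differed by 0.10 (SE 0.06), Nanog by 0.06 (SE 0.05) and Cxxc5 by 0.06 (SE 0.05).

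Of 7 tested genes of methyl donor and 2-oxoglutarate metabolism, 6 lay lower in the siRNA average, with a median of -0.078 and 0 called. TET enzymes use 2-oxoglutarate as co-substrate, and Ogdh (-0.03), among the 6, encodes an enzyme that consumes it. The median was -0.011 with siRNA 1 and -0.111 with siRNA 2. Mtr, methionine synthase, differed by -0.15 (SE 0.07), Mat2b by -0.10 (SE 0.05), Idh3a by -0.10 (SE 0.05) and Idh1 by -0.08 (SE 0.06). Mat2b differed by 0.01 with siRNA 1 and by -0.22 with siRNA 2, and Idh3a by 0.00 and -0.19. Of the 11 genes in that list 4 were not analysed here, among them Mat2a, which encodes the catalytic subunit of the donor's synthase.

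Germline genes that promoter methylation is known to silence in somatic cells formed the last of these lists. Methylation was not measured, and its part in their levels was not tested. Their control means ran from 5.73 (Asz1) to 10.37 (Mael), where the median gene had a mean of 8.37 over all arrays. Of 14 tested genes 3 lay higher and 11 lower, with a median of -0.028 and 0 called. The mean of 4 of them was under the lower quartile of the values of all probe sets with a single gene symbol. That cut differs from the array quartiles given above, which cover all probe sets. Sycp3, of the meiotic chromosome axis, averaged 10.11 ± 0.12 on the controls (SD, n = 3), 9.90 ± 0.06 after siRNA 1 (n = 3) and 9.89 ± 0.01 after siRNA 2 (n = 2) (difference -0.21, SE 0.06), below every control on 5 of 5 siRNA arrays, as 2.25% of all genes were. Mael, of the piRNA pathway, differed by -0.16 (SE 0.05), by -0.04 with siRNA 1 and -0.27 with siRNA 2, with 3 of 5 siRNA arrays below the controls. Syce1 differed by -0.09 (SE 0.05), and Asz1, whose control mean of 5.73 is among the dim values, by 0.09 (SE 0.04), above every control on 5 of 5 siRNA arrays, as 2.49% of all genes were. Sycp3 and Mael had an unadjusted p under 0.05, against 6.31% of all genes, and an adjusted p of 0.769 in limma.

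**Figure D4:**
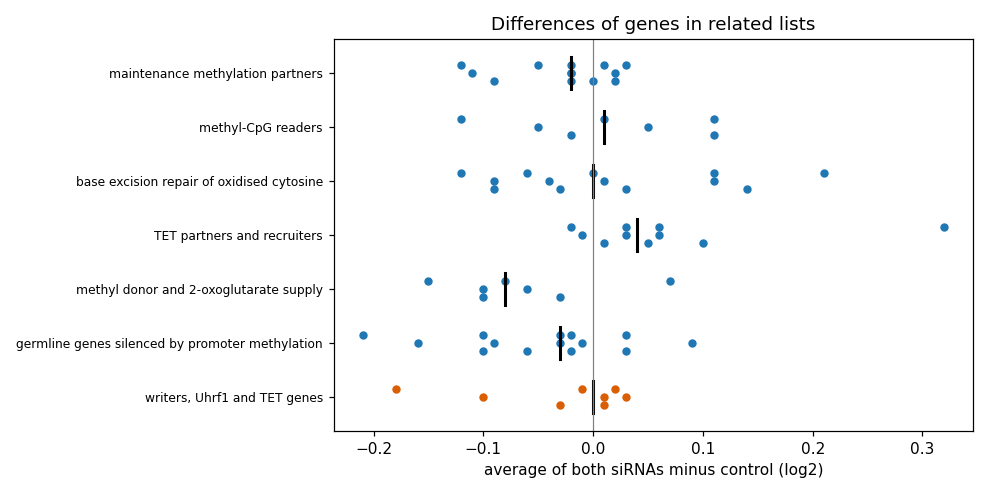
Difference between the average of both siRNAs and control (horizontal axis, log2) for each tested gene of 6 related lists and for the 8 genes described here (vertical axis). Points are genes and black bars list medians, which run from -0.078 to 0.039, and the point farthest to the right is Dppa3 at 0.32.

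Likeness over arrays was measured by Pearson's r of log2 values over the 8 arrays, among 9721 brighter genes, and is a description, since the highest of so many values is high by construction. Nearest to Tet1 were Prrc2c (r = 0.967), Suz12, a subunit of Polycomb repressive complex 2 (0.956), and Mki67, the proliferation marker (0.954). Nearest to Tet2 were Tnks (0.987), Peg10 (0.985) and Lin54 (0.979), and to Tet3 Phkb (0.976), Meioc (0.973) and Rhoq (0.963). For Dnmt3a these were Ino80c (0.987), Pdcd4 (0.981) and Crmp1 (0.971), for Dnmt3b Eif4b (0.982), Gak (0.977) and Srebf2 (0.977), and for Dnmt3l Tfeb (0.973), Tbc1d2 (0.966) and Pgpep1 (0.962). Dnmt1 was nearest to Tnrc6c (0.982), Rapgef2 (0.979) and Abl1 (0.978), and Uhrf1 to Lsm3 (0.978), Ppp1r35 (0.974) and Ngdn (0.974).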

How the data were processed

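The authors deposited log2 values, 1 per probe set and array; the submitters' processing notes name RMA, with no version or software. RMA aligns the arrays' distributions, so a shift shared by most genes would not show. Of 28815 probe sets 21780 had 1 gene symbol, 1605 several and 5430 none in the annotation table, which gave 19935 genes. Limma (version 3.58.1, R 4.3.3) modelled all 8 arrays with 1 mean for each group; p-values are two-sided and Benjamini-Hochberg adjusted over all 19935 genes, and standard errors and intervals are the model's. The fit was tested on simulated data. Python 3.11.15 (numpy 2.4.6, pandas 2.3.3) made the tables and matplotlib 3.10.9 the plots.

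The members and the 9 lists (99 of 107 genes tested) were chosen with earlier results of these data known. Named genes are all members, up to 4 per list with the smallest unadjusted p, and the 3 genes most like each member with a mean above the median gene (8.37), predicted genes left out. The alternatives were repeated quantile normalization, centring, an expression filter, trended robust moderation, array weights, all probe sets, mean probe sets, other probe sets, only the groups compared, a replicate block, the array lower quartile as covariate, and arrays left out.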

Additional observations from a re-analysis of the deposited data

How the results depend on the processing

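Of 612 recomputed member differences 569 kept their direction and call, 42 turned direction, none larger than 0.138 in size, and 1 passed the threshold (Tet2 with siRNA 1 under array weights, -0.339). No gene was called in limma's main comparisons or their alternatives, other than 14 (siRNA average) and 1436 (siRNA 1) under array weights and 3 (siRNA 2 against siRNA 1) under trended robust moderation; the cause was not tested. The replicate block called 0 genes in all 4 comparisons (884, 621, 890 and 552 at an unadjusted p under 0.05). Deviations from group means correlated from -0.547 to 0.219 for same-numbered arrays and from -0.219 to 0.547 for different-numbered ones. Deviations within a group sum to 0, so these values cannot decide whether the numbers pair the samples.

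In the siRNA average, Dnmt1 turned to 0.016 with the lower quartile as covariate; Dnmt3a to 0.0 after repeated quantile normalization, 0.021 with array weights and 0.023 without siRNA 1 replicates 1 and 2; Uhrf1 to -0.003 after centring; Tet3 to 0.008 with its other probe set. Tet1 turned to -0.006 after centring, -0.074 with array weights, -0.021 with mean probe sets, -0.013 with the replicate block, -0.006 with the covariate, -0.085 without siRNA 1 replicates 1 and 2, and -0.002 and -0.066 with its other probe sets. With siRNA 1, Dnmt3b turned to 0.015 with array weights and 0.022 without replicates 1 and 2. With siRNA 2, Dnmt3l turned to -0.006 with the replicate block, Uhrf1 to 0.014 with the covariate and Tet3 to 0.04 with its other probe set.

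Leaving out 1 array at a time turned the following. In the siRNA average Dnmt1 ran from -0.04 to 0.02, Dnmt3a from -0.065 to 0.007, Dnmt3b from -0.018 to 0.051, Uhrf1 from -0.011 to 0.032 and Tet1 from -0.03 to 0.051. With siRNA 1 Tet1 ran from -0.122 to 0.038. With siRNA 2 Dnmt1 ran from -0.018 to 0.102, Dnmt3a from -0.004 to 0.139, Dnmt3b from 0.0 to 0.136, Dnmt3l from -0.016 to 0.046, Uhrf1 from -0.06 to 0.017, Tet2 from -0.12 to 0.022 and Tet3 from -0.339 to 0.039. Between the siRNAs Tet2 ran from -0.01 to 0.184 and Tet3 from -0.138 to 0.239. Where siRNA 2 is left with 1 array, that array is assumed to vary like the other groups. Using only the groups compared was not run for the siRNA average, which uses all groups.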
